A study of Mus musculus with 3 samples.

Results

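The SOCS family of cytokine feedback inhibitors was examined by RNA sequencing of group 2 innate lymphoid cells (ILC2s), tissue lymphocytes that lack rearranged antigen receptors and make type 2 cytokines. The family was taken by name as Cish and Socs1 to Socs7, and all 8 genes were found by Entrez gene ID among the 27179 gene IDs of the deposited count table. The series holds a single group of 3 libraries: ILC2s of wild-type C57BL/6 mice, sorted as cells with CD45, CD90.2, CD127 and KLRG1 on the surface. Cells with CD3, CD5 or CD8, with CD11b, CD11c or B220, or with NK1.1 were left out of the sort. The design text names 3 mice, and libraries are numbered here as in their titles (mouse 1, 2 and 3). The study's title is about the clock of intestinal group 3 cells (ILC3s), a related lineage. Tissue, hour of collection, age and sex are not stated, and with 1 group no comparison between conditions was possible.

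Cytokines such as IL-2, IL-7, IL-4 and interferon-γ bind receptor chains that carry Janus kinases (JAKs), which phosphorylate STAT transcription factors. STATs then switch on genes that include Cish and several SOCS genes, whose proteins bind the receptors or the kinases through an SH2 domain and recruit a ubiquitin ligase through a C-terminal SOCS box. CISH and SOCS2 are typical products of STAT5 signalling, SOCS1 of interferon and γ-chain cytokine signalling, and SOCS3 of STAT3 signalling. SOCS1 and SOCS3 also inhibit JAKs directly through a kinase inhibitory region. SOCS4 to SOCS7 are less well studied and are better known for acting on receptor tyrosine kinase and insulin signalling. ILC2s depend on IL-7 and related cytokines, so these inhibitors lie on the pathways that maintain and activate them.

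Library totals were 22112425, 17819551 and 26374248 counts in mice 1, 2 and 3, and levels are given as scaled CPM, the usual read count relative to library size. A count of 0 allows up to 3 counts, or 0.132, 0.171 and 0.115 CPM by mouse. Reads carried no molecular identifiers, so such limits and all intervals cover counting error only. All 14 ILC2 marker genes, among them Klrg1 and Il7r, whose proteins were used in the sort, reached 1 CPM in each library. Of the 12 ILC3 marker genes 9 did so, and the list summed to 1536, 1555 and 1768 CPM in mice 1, 2 and 3. Each spread between mice also holds variation from the sort and from amplification, and in bulk samples fewer cells of a type and less RNA per cell cannot be told apart.

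ILC2s held mainly transcripts of the STAT5-linked members. Socs2 and Cish together made up most of the family in every mouse, and Socs1, Socs5, Socs4 and Socs6 were present at lower levels. Socs3 and Socs7 had the lowest mean levels and fell below 1 CPM in at least 1 library. Of the 8 members 6 reached 1 CPM in each of the 3 libraries, beside 56.1% of the 15092 genes with at least 1 count. The same 6 reached 5 CPM in each library, which 42.5% of those genes did. The median of the members' mean levels was 25.7 CPM, against 5.28 CPM over all genes with a count. Members were summed to 792, 697 and 853 CPM in mice 1, 2 and 3.

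Socs2 lies on chromosome 10 (95383903 to 95417321, mm10) and encodes the inhibitor best known for limiting growth hormone signalling. It had 492, 471 and 497 CPM in mice 1, 2 and 3, with a mean of 486 ± 14.0 (SD, n = 3). The 3 mice thus lay within a narrow band, with a coefficient of variation of 2.87% against a median of 30.3% over the 9206 genes tested for variability, and 0.815% of tested genes had a lower one. Without trimmed mean of M values (TMM) scaling the coefficient was 4.17%, and with DESeq2 size factors it was 1.37%. Mouse 1 was the highest without TMM and mouse 3 under the other scalings, so no order of the mice is given for Socs2. On the mean, 96.0% of the 8461 genes detected at 1 CPM in each library had a lower CPM than Socs2.

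Cish lies on chromosome 9 (107296659 to 107302784, mm10) and encodes CIS, an inhibitor of STAT5 signalling that also limits antigen receptor signalling in T cells. It had 177, 139 and 250.0 CPM in mice 1, 2 and 3, or 189 ± 56.3 (SD, n = 3). Mouse 3 was highest and mouse 2 lowest. The exact 95% Poisson intervals of the mice, 171 to 182, 134 to 145 and 244 to 256 CPM, did not overlap, so counting error is smaller than the spread between mice. Exons of 2 unnamed genes on the opposite strand, Gm17040 and Gm17041, overlap those of Cish by 261 and 479 bases. The kit does not mark strand, and reads of the 2 strands cannot be told apart there.

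The promoter windows of 3 STAT-linked members are shown because they hold motifs of the factors in this pathway. RefSeq windows of GRCm38.p6, which run from 250 bases before to 50 bases after the start, were available for Cish, Socs1, Socs3 and Socs4. They were searched on both strands for TTCNNNGAA, a pattern bound by STAT dimers, for the same arms 4 bases apart, a spacing that STAT6 accepts, and for GAAA repeated after 2 bases, a core of interferon regulatory elements. In Cish, 2 copies of the STAT pattern lie side by side from base 1 to base 20 after the start. The stretch of 28 bases around them, chr9:107296655-107296682 on the plus strand, is given with the motifs in capitals.
Cish: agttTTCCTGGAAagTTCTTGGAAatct
Of all 32841 windows of the same length, 8.3% held at least 1 copy of TTCNNNGAA and 0.457% held 2 or more.

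For Socs1 and Socs3 the 250 bases before the start are shown, from the minus strand of chr16:10785537-10785786 and of chr11:117969367-117969616, again with matches in capitals. The start used for Socs3 in the promoter table lies inside the span of the gene given below, so its window falls within that span.
Socs1: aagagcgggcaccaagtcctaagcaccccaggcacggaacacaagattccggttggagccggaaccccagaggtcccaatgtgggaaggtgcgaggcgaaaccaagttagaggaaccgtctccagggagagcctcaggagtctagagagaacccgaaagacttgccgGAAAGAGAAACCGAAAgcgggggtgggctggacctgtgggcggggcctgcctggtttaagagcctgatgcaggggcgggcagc
Socs3: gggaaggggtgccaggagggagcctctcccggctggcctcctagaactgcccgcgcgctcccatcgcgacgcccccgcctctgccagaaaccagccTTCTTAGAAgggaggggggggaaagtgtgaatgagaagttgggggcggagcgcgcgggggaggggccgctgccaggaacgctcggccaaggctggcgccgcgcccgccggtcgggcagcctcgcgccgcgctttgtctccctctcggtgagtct
The capitals in Socs1 are 2 overlapping copies of the GAAA repeat, at bases -83 to -74 and -77 to -68, a pattern with at least 1 copy in 3.44% and 2 or more in 0.225% of all windows. The Socs3 match is 1 copy of TTCNNNGAA, at bases -154 to -146. None of the 4 windows held the arms 4 bases apart, which occurred in 6.95% of all windows, and the window of Socs4 held none of the 3 patterns. A match is a description of the letters and not evidence of binding.

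Socs1 lies on chromosome 16 (10783808 to 10785536, mm10) and encodes the main inhibitor of interferon-γ and IL-4 signalling through direct binding of JAKs. It was the most uneven of the 7 members tested for variability, with 13.5, 6.09 and 46.2 CPM in mice 1, 2 and 3, or 21.9 ± 21.3 (SD, n = 3). Mouse 3 was high and mouse 2 low, a 7.59-fold range. The exact 95% Poisson intervals, 12.0 to 15.1, 4.99 to 7.35 and 43.6 to 48.9 CPM, lay well apart. The 3 libraries held 305, 107 and 1204 counts of the gene.

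Socs3 lies on chromosome 11 (117966079 to 117970336, mm10) and encodes the feedback inhibitor of receptors that signal through gp130, such as those of IL-6. It had 28, 0 and 40 counts in mice 1, 2 and 3, or 1.24, 0 and 1.53 CPM. The count of 0 in mouse 2 allows up to 0.171 CPM by the limit of 3 counts, and the exact 95% Poisson interval ends at 0.210 CPM. Both limits lie below the exact intervals of mouse 1 (0.821 to 1.79 CPM) and mouse 3 (1.10 to 2.09 CPM). The intervals of mice 1 and 3 overlapped, so these mice could not be ordered for Socs3. Mouse 2 lay lowest for Cish, Socs1 and Socs3 alike, and mouse 3 highest for Cish and Socs1. Of the 9206 tested genes, to which Socs3 does not belong, 20.2% were highest in mouse 3 and lowest in mouse 2, and 37.1% were lowest in mouse 2.

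The remaining members showed a narrower spread than Socs1 and all had their highest value in mouse 1, except that Socs5 was level in mice 1 and 2 (43.4 and 43.6 CPM) with DESeq2 size factors. Socs5, known for acting on IL-4 receptor and epidermal growth factor receptor signalling, had 43.8, 42.8 and 22.0 CPM in mice 1, 2 and 3. The exact 95% Poisson intervals of mice 1 and 2, 41.1 to 46.6 and 39.8 to 45.9 CPM, overlapped, so these mice could not be ordered. Mouse 3 was low. Socs4, a close relative of Socs5, had 38.3, 24.1 and 25.9 CPM, with mice 2 and 3 alike. Socs6, which has been described as a regulator of KIT and insulin signalling, had 25.0, 12.6 and 9.40 CPM, with mouse 1 apart from the others. Socs7, an adaptor-binding member first described with NCK, had 57, 26 and 23 counts, or 2.51, 1.48 and 0.882 CPM. It fell short of 1 CPM in mouse 3 alone. Socs5 and Socs6 were also lowest in mouse 3, and Socs7 had its lowest value there. The exact 95% Poisson intervals of Socs7 were 1.90 to 3.26, 0.966 to 2.17 and 0.559 to 1.32 CPM by mouse. That of mouse 2 overlapped the others, so mouse 2 could not be placed for Socs7. Across tested genes, 32.3% were highest in mouse 1, and 15.4% were highest in mouse 1 and lowest in mouse 3.

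Levels of different members were then compared per kb of summed exon length, on the log2(CPM per kb + 0.5) scale. Socs2 had 51.0 ± 1.47 and Cish 29.4 ± 8.77 CPM per kb (SD, n = 3). They were followed by Socs1 (7.53 ± 7.34), Socs5 (5.64 ± 1.92), Socs4 (4.28 ± 1.12) and Socs6 (1.38 ± 0.725), with Socs3 (0.319 ± 0.281) and Socs7 (0.224 ± 0.114) at the end. Of the genes detected at 1 CPM in each library, 86.1% had a lower mean level per kb than Socs2 and 79.3% a lower one than Cish.

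**Figure D1:**
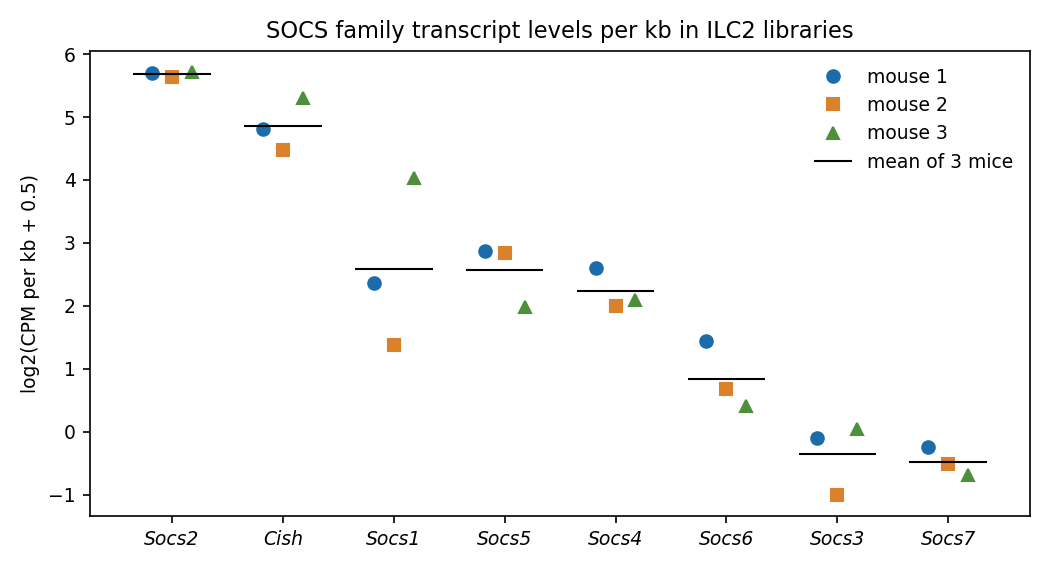
Each point is the level of a SOCS family gene in 1 mouse, as log2(CPM per kb + 0.5), with genes in the order of their mean (line). The 3 points of Socs2 nearly coincide, whereas those of Socs1 spread across the levels of Socs5, Socs4 and Socs6.

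Not every step in this order exceeded the spread between mice. Socs2 exceeded Cish by 0.83 ± 0.38 on the log2 scale (SD, n = 3), higher in 3 of 3 mice with ranges that did not overlap. Cish exceeded Socs1 by 2.27 ± 0.93, Socs4 exceeded Socs6 by 1.39 ± 0.27 and Socs6 exceeded Socs3 by 1.20 ± 0.72, also without overlap, with Socs3 at a count of 0 in mouse 2. Socs1 and Socs5 differed by 0.03 ± 1.82, Socs5 and Socs4 by 0.33 ± 0.48, and Socs3 and Socs7 by 0.12 ± 0.61, and these 3 pairs of neighbours could not be ordered. In mouse 3 Socs1 lay above Socs5 and Socs4, while in mice 1 and 2 it lay below both.

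In all, 23 of 28 pairs of members (82.1%) had ranges that did not overlap, beside 78.1% of all pairs of detected genes, so this degree of separation is close to that of genes at large. The exact two-sided sign-flip test cannot give a p below 0.25 with 3 libraries. That value was reached by 24 pairs, with an adjusted p of 0.292 over 28 pairs, and no pair could pass 0.05. Division by the longest transcript in place of the summed exons gave 22 such pairs and no division by length 21.

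As shares of the family total per kb, Socs2 took 52.1%, 58.3% and 45.1% in mice 1, 2 and 3, and Cish took 27.8%, 25.6% and 33.7%. The share of Socs1 was 4.67%, 2.47% and 13.7%. Socs2 was the largest component in each mouse, and Cish the second. In mouse 3 Socs1 was the third, whereas in mice 1 and 2 Socs5 held that place with 6.89% and 7.87%. Without division by length Socs2 averaged 62.6% in place of 51.8%.

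**Figure D2:**
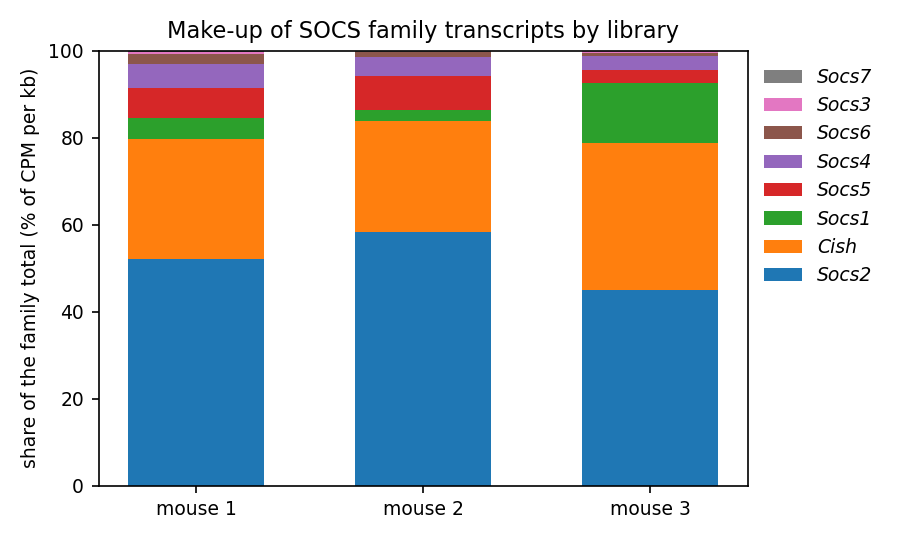
Bars show the share of each SOCS family gene in the summed CPM per kb of the family (percent) for each of the 3 mice. Socs2 takes 45.1% to 58.3% and Cish 25.6% to 33.7%, and the share of Socs1 is 13.7% in mouse 3.

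Whether any member differed between mice more than genes of its abundance was tested with edgeR. The log2 ratio of a gene's quasi-dispersion to the abundance trend was 2.73 for Socs1, 1.15 for Cish, 0.50 for Socs5, 0.38 for Socs6, -0.12 for Socs7, -0.87 for Socs4 and -5.32 for Socs2. Socs3 did not pass the filter on low counts. None of the 7 tested members passed an adjusted p of 0.05 (edgeR quasi-dispersion F test, Benjamini-Hochberg over 9206 genes), beside 0.185% of all tested genes. At an unadjusted p below 0.05 there was 1 member, Socs1, beside 4.44% of tested genes. limma and DESeq2 also called 0 members. Absence of a call says little with 3 libraries: in simulated tables, including one with the gene-wise spread of the real table, this test missed most changes of about the size of the Socs1 range.

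For Socs1 the unadjusted p was 0.0147 and the adjusted p 0.978 in the edgeR test. The adjusted p ranged from 0.205 to 0.996 over the alternatives. Mouse 3 decided this ratio: without it the log2 ratio was -0.12, with an adjusted p of 0.996. Ratios of other members also changed sign when 1 mouse was left out: Cish had -0.70 and Socs5 -11.03 without mouse 3, Socs6 had -2.80 without mouse 1, and Socs7 had 0.55 without mouse 2. The test looks only for an excess of variation. For Socs2, 2.37% of tested genes had a lower ratio to the trend, and the ratio stayed between -8.85 and -4.29 over the alternatives.

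**Figure D3:**
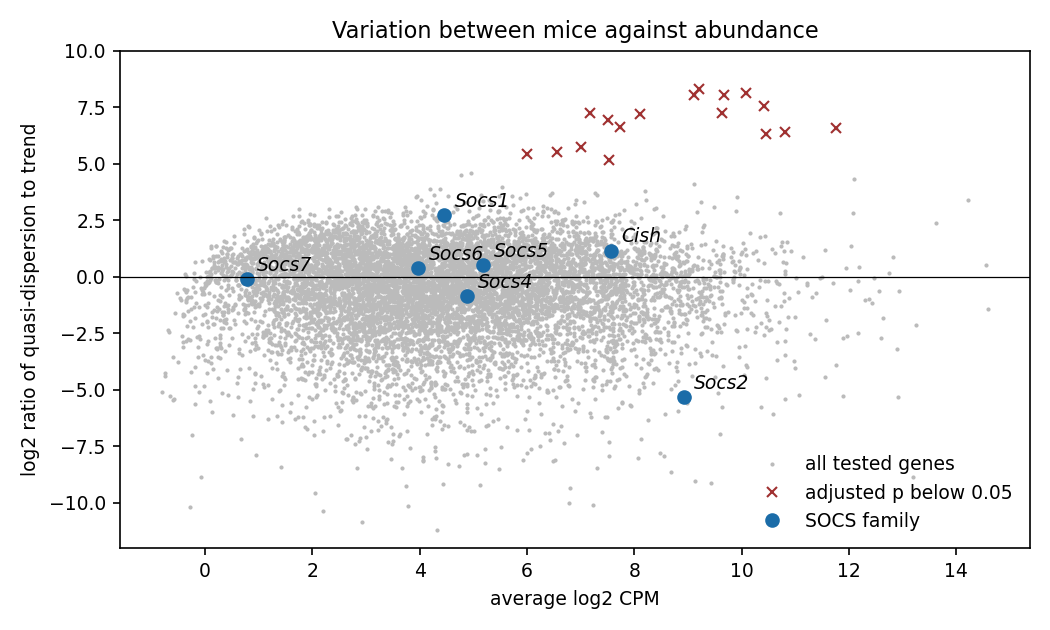
Each point is a tested gene, with its average log2 CPM on the x axis and the log2 ratio of its quasi-dispersion to the abundance trend on the y axis. Crosses mark genes with an adjusted p below 0.05, and labelled circles mark the 7 tested SOCS family genes, of which Socs1 lies highest at 2.73 and Socs2 lowest at -5.32.

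Lists of other cell types and of handling-related genes were set beside the order of the mice seen for Socs1. Sums of the immediate early and heat shock, myeloid, and stroma and endothelium lists had that order. The genes within each of these lists did not share it. The 18 immediate early and heat shock genes, which include genes that respond to handling of cells, summed to 3263, 2203 and 4521 CPM in mice 1, 2 and 3, and 16 of them reached 1 CPM in each library. Of the 18, all tested, 4 had the order of Socs1, beside 20.2% of all tested genes. Among those 4, Junb, which is also a STAT3-induced gene, had 926, 425 and 1528 CPM, and the phosphatase gene Dusp1 had 477, 203 and 975 CPM. Others went another way: Fos had 448, 215 and 322 CPM, Fosb had 204, 170 and 121 CPM, and the chaperone gene Hsph1 had 0.926, 42.7 and 18.6 CPM.

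The 13 myeloid markers, 5 of them detected, summed to 2319, 1832 and 2773 CPM in mice 1, 2 and 3, with no counts of Adgre1, S100a8, S100a9 or Flt3. That sum was mostly Cd74, a gene of antigen presentation, at 1803, 1272 and 2267 CPM. Of the 5 tested markers 2 had the order of Socs1 and 3 were highest in mouse 2. The 10 stroma and endothelium markers, 3 of them detected, summed to 45.6, 39.5 and 80.9 CPM, and none of the 3 tested had the order of Socs1. Acta2, the smooth muscle actin gene and not among the detected, had 0.397, 0.455 and 41.6 CPM. The 13 B and plasma cell markers, 9 of them detected, summed to 12813, 34724 and 63349 CPM, with no counts of Ms4a1 or Pax5. They were highest in mouse 3 but lowest in mouse 1. T cell markers (7 of 14 detected) summed to 1733, 1803 and 1705 CPM. That sum was mostly Trbc1 (779, 761 and 733 CPM), Trbc2 (619, 611 and 558 CPM) and Cd3g (265, 385 and 314 CPM). Cd4 and Cd8a had at most 1 count in any library. NK cell and ILC1 markers (3 of 10 detected) summed to 39.0, 261 and 84.9 CPM. Of that sum Gzma had 7.19, 229 and 48.2 CPM, with an edgeR adjusted p of 0.00599 for variability. The part of these transcripts in the Socs1 values was not tested. Of the 14 ILC2 markers, all tested, 6 had the order of Socs1, beside 20.2% of all tested genes. Without immunoglobulin and T cell receptor segment genes in the table, Socs1 had 14.0, 6.45 and 48.3 CPM in mice 1, 2 and 3. That step changes only the scaling of the libraries, so it cannot show what part other cells had in Socs1.

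The signals that induce SOCS genes were examined from the ligands inwards. Of 24 cytokine genes that act through JAKs, 12 reached 1 CPM in each library and 8 had no count. The share of 56.1% over all genes with a count leaves out genes such as those 8, so it is not on equal terms. Per kb, the highest were Csf2 (8997 ± 2749 CPM per kb, SD, n = 3), which encodes GM-CSF, Il5 (1256 ± 355), Il4 (776 ± 400.0), Il6 (187 ± 63.1) and Il2 (95.9 ± 21.6). The median over the list was 5.50 CPM with the 8 genes without a count included. The 5.28 CPM of all genes with a count leaves such genes out, so these medians are not on equal terms. No counts were found for Il11, Il21, Tslp, Ctf1, Gh, Prl, Lep and Epo. The ILC2s thus held transcripts of several STAT5 and STAT6 ligands, with Il2 and Il4 among them. Whether these ligands act on the same cells was not tested. Of receptor chains named after their values were seen, Csf2rb had 0, 3 and 2 counts and Il4ra had 36.8, 18.7 and 15.5 CPM.

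Of 34 receptor chains 18 reached 1 CPM in each library and 4 had no count. The share of 56.1% over all genes with a count leaves out genes such as those 4. The common γ chain Il2rg led at 2316 ± 341 CPM per kb (SD, n = 3), followed by Ifngr1 (531 ± 149), the ligand-binding chain for interferon-γ, Il7r (227 ± 41.8), Il2ra (89.3 ± 6.86) and Ifnar2 (68.3 ± 11.6). Il5ra, Csf3r and Epor were among the 4 without a count. Of 19 tested receptor chains 5 had the order of mice of Socs1, beside 20.2% of all tested genes, and 9 were highest in mouse 1. Outside the naming rule and chosen after their values were seen, the signalling chains Il2rb and Ifngr2 were among the 5. Il2rb had 58.9, 31.5 and 107 CPM, and Ifngr2 had 116, 75.9 and 205 CPM. Neither passed the test of variability, with an edgeR adjusted p of 0.978 for each. Il6st, which encodes gp130, had 2.07, 2.33 and 2.45 CPM, and Il6ra had a single count, in mouse 3. Also named after their values were seen, other chains known to signal through STAT3 lay on both sides of Il6st. Il10rb (59.0, 78.5 and 71.9 CPM), Il10ra (5.51, 10.7 and 8.13 CPM) and Il27ra (32.2, 19.7 and 20.8 CPM) were higher. Il21r was lower, at 1.72, 0.682 and 0.614 CPM, and Il23r, Osmr, Lifr and Lepr had at most 5 counts in any library. The growth hormone receptor Ghr, on which SOCS2 is known to act, had 2, 3 and 1 counts.

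All 4 Janus kinase genes and all 7 STAT genes reached 1 CPM in each library, beside 56.1% of all genes with a count. Jak2 had 86.1 ± 20.7 and Jak1 27.0 ± 2.58 CPM per kb (SD, n = 3), whereas Tyk2 had 1.54 ± 0.696 and Jak3, the partner of the γ chain, 0.498 ± 0.184. Among the STATs, Stat4 was the highest per kb at 131 ± 17.7, and Stat3 (7.22 ± 0.356), Stat6 (7.07 ± 2.07) and Stat5b (2.33 ± 0.943) were lower. Stat5a had 0.788 ± 0.221 CPM per kb. The factors best known for inducing Cish and Socs2 were therefore among the lowest STAT transcripts, with Socs2 itself at 51.0 ± 1.47 CPM per kb. None of these 11 genes passed the test of variability at an adjusted p of 0.05 in edgeR.

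The ubiquitin ligase that SOCS boxes recruit had 10 of 10 listed partner genes at 1 CPM in each library. The share over all genes with a count was 56.1%, and the median of the listed genes was 144 CPM. The adaptors Elob (222 ± 40.3 CPM per kb, SD, n = 3) and Eloc (171 ± 33.3), which bind the SOCS box, were the highest. Nedd8 (159 ± 28.5), the modifier that activates cullins, Rnf7 (84.2 ± 13.1), the RING partner of cullin 5, and Rbx1 (51.3 ± 12.6) followed. Cul5, the scaffold for most SOCS proteins, named after its value was seen, had 5.54 ± 0.663 CPM per kb.

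Of 13 other inhibitors of JAK-STAT signalling 10 reached 1 CPM in each library, beside 56.1% of all genes with a count. The JAK and STAT phosphatase gene Ptpn2 led at 209 ± 26.3 CPM per kb (SD, n = 3), above Socs2 on the same scale. It was followed by Ptprc (25.6 ± 4.94), which encodes CD45 and was used in the sort, Pias1 (16.7 ± 4.76), Ptpn6 (11.2 ± 3.41), which encodes SHP-1, and Ptpn1 (7.66 ± 3.78). Of 21 receptors and adaptors that SOCS proteins are known to bind or degrade, 10 were detected. Besides Jak2 and Jak1 these were led by Kit (27.4 ± 11.5), Lck (15.0 ± 8.39) and Nck1 (7.68 ± 0.856), whereas Epor, Csf3r and Flt3 had no counts.

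**Figure D4:**
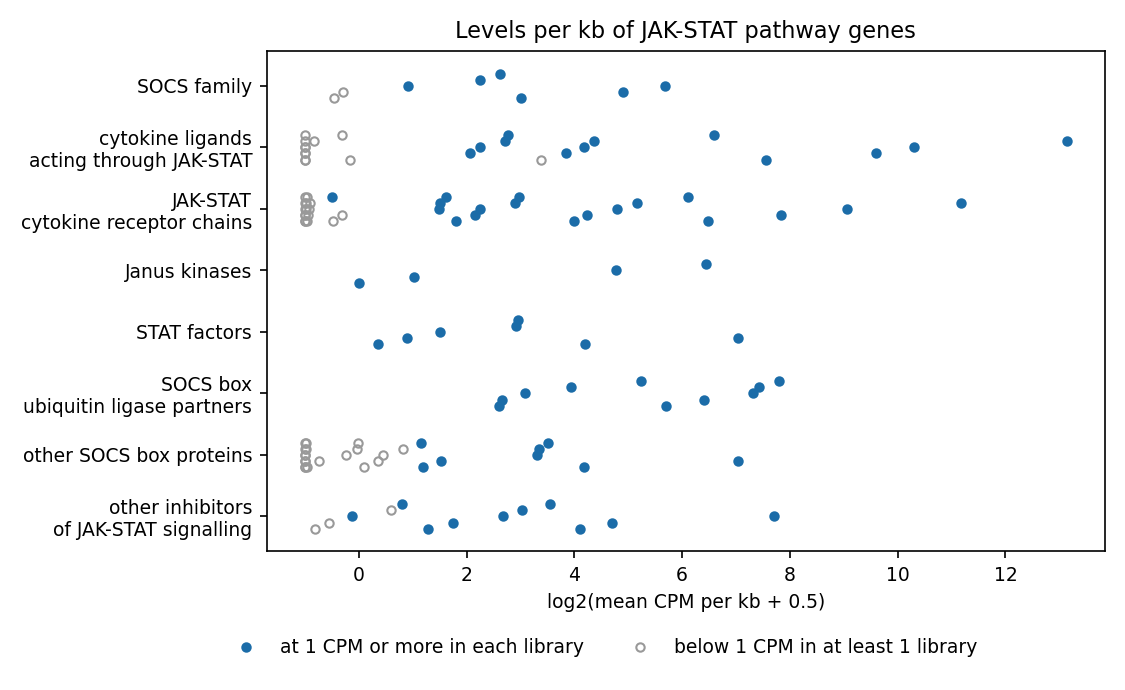
Each circle is a gene of the JAK-STAT pathway, placed by log2(mean CPM per kb + 0.5) over the 3 mice and grouped by role. Filled circles mark genes at 1 CPM or more in each library, which holds for 6 of 8 SOCS genes, 4 of 4 Janus kinases, 7 of 7 STAT factors and 10 of 10 ligase partners. Over all genes with a count the share is 56.1%.

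Genes induced by the same STATs were listed beside the family. Their counts of detected genes stand beside the 56.1% of all genes with a count that reached 1 CPM in each library. Of 10 further STAT5-induced genes all 10 reached 1 CPM in each library, with a median of 39.3 CPM, and the highest per kb were Il2ra, Myc (35.9 ± 15.7 CPM per kb, SD, n = 3), Ccnd2 (32.7 ± 8.81), the kinase gene Pim2 (22.7 ± 19.6) and Bcl2 (6.56 ± 3.11). Pim2 had 46.2, 19.3 and 125 CPM in mice 1, 2 and 3, the order of Socs1 and Cish, with an edgeR adjusted p of 0.581 for variability. Bcl2 had another order, 87.8, 61.5 and 30.9 CPM. STAT5-induced genes thus did not share 1 order of the mice.

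Of 7 STAT3-induced genes 6 were detected, while Socs3 of the same pathway had no count in mouse 2. The 6 were led by Junb (417 ± 240.1 CPM per kb, SD, n = 3), Fos (140 ± 49.6) and Batf (133 ± 33.4). Pim1 had 3.52 ± 1.36 and Ier3, the gene below 1 CPM in mouse 3, had 2.42 ± 2.14. Several of these genes also respond to other signals. Of 12 interferon-induced genes 11 were detected, with a median of 62.7 CPM. Cxcl10 (87.3 ± 26.5 CPM per kb), Isg15 (79.9 ± 8.25), Gbp2 (34.5 ± 3.26), Ifit1 (32.8 ± 5.12) and Irf1 (28.9 ± 3.92) were the highest.

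Several interferon-induced genes varied less between mice than Socs1. The transcription factor gene Irf1 had 116, 99.1 and 130 CPM in mice 1, 2 and 3, and Isg15 had 65.1, 53.3 and 62.8 CPM. Irf9, named after its values were seen, had 38.5, 34.6 and 122 CPM, high in mouse 3 as Socs1 was, and its edgeR adjusted p was 0.978.

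The genes most like each tested member were found by Euclidean distance over the 3 libraries on the log2(CPM per kb + 0.5) scale. Nearest to Socs2 were Katna1 (distance 0.04) and Chchd3 (0.07), and nearest to Cish were Rce1 (0.10) and P4hb (0.13). Socs1 had no close match, its nearest genes being Slc25a33 (0.45) and Gpr108 (0.49). Atp6v1a (0.08) and Bclaf3 (0.14) were nearest to Socs4, Trim21 (0.04) and Neb (0.12) to Socs5, Pikfyve (0.06) and Snrk (0.14) to Socs6, and Atg9a (0.11) and Hjurp (0.12) to Socs7. With 3 libraries this measure reflects level more than pattern.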

How the data were processed

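Raw read counts per Entrez gene ID were deposited by the authors as 1 table of 27179 gene IDs and 3 libraries. A SMARTer kit for low RNA input, which does not mark strand, was used per the labels' protocols. The tools named are STAR 2.3.0 and CASAVA 1.8.2, with build mm10, per the submitters' processing notes. For the counting program and its annotation the sources used here give no name. Gene IDs were named from the RefSeq table of GRCm38.p6 (25275 matched), and lengths came from GENCODE M21.

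CPM were computed on TMM-scaled library sizes (edgeR 4.0.16, R 4.3.3; factors 1.03, 0.987 and 0.989). CPM per kb, with 0.5 added before log2, served for comparisons between genes. Variability was tested on 9206 genes that passed filterByExpr (minimum count 10) with an intercept-only quasi-likelihood fit and an upper-tail F test of quasi-dispersion over trend, with Benjamini-Hochberg adjustment at 0.05. The procedure was tested on simulated data with 4 settings of the spread, the quietest of them added because others had recovered none. It made no false call, recovered none of the changes at the common dispersion of the real table or with dispersions from its lower part, recovered larger changes but hardly any smaller ones with the gene-wise dispersions, and did best in a table made quieter than the real one. Its sensitivity on the real counts is therefore low. Where nothing else is said, named genes are all members, the 5 highest per kb of each list, those without counts, and the 2 nearest genes of each tested member. The members and lists were chosen with earlier results of these data known. 1 ligand list entry was left out because its symbol belongs to another gene in the mouse, and a few genes of the lists are not reported here. Alternatives were other scalings and minima, DESeq2 1.42.0, limma 3.58.1, a robust prior, other lengths, and leaving out each library.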

Additional observations from a re-analysis of the deposited data

How the results depend on the processing

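No paired analysis was possible because there is no second group. All 29 alternative values of the counts of detected members, of pairs without overlap, of more variable members and of detected list entries stayed within 1.5 times the reported count. Without each mouse in turn, 6 to 7 members were detected (7 without mouse 2 or without mouse 3), 24 to 25 pairs had no overlap, and 0 members were called more variable. At a minimum of 1 count in each library 7 members were detected. Of 150 other values 6 moved, which for a level means by more than 1 SD between mice, for a count by over 1.5 times and for an uncalled dispersion ratio that it became called. Under that rule a ratio that changed sign without being called is not counted, as for Cish (-0.70 to 1.33 without each mouse in turn), Socs1 (-0.12 to 3.44), Socs5 (-11.03 to 1.37), Socs6 (-2.80 to 1.52) and Socs7 (-1.75 to 0.55). The mean level of Socs1, 4.02 on the log2(CPM + 0.5) scale, was 3.27 without mouse 3, 4.68 without mouse 2 and 4.11 without mouse 1. Those that moved include the count of all more variable genes, 17 in the report, which was 31 without mouse 1, 27 with a filter at a mean of 5 CPM, 1 without segment genes and 0 with a robust prior. The cause was not tested. Depth limits Socs3 in mouse 2 to 0.171 CPM by the limit of 3 counts, or 0.210 CPM by the exact 95% Poisson interval.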

Other observations

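Beyond the SOCS family, 27 genes of other SOCS box proteins were listed. Of these, 8 reached 1 CPM in each library and 8 others had no count. The share of 56.1% over all genes with a count leaves out genes without one, so it is not on equal terms. Wsb1 led at 130 ± 6.20 CPM per kb (SD, n = 3), with 542, 524 and 493 CPM in mice 1, 2 and 3. It was followed by Asb2 (17.6 ± 5.15), Asb3 (11.0 ± 0.537), Asb8 (9.71 ± 0.989) and Spsb3 (9.45 ± 6.81). Asb3 had 61.7, 59.9 and 56.0 CPM and Spsb3 had 17.7, 12.5 and 46.9 CPM, the order of mice seen for Socs1. No counts were found for Asb9, Asb11, Asb12, Asb15, Asb16, Asb18, Spsb4 and Neurl2. Asb6, named after its values were seen, had 6, 0 and 234 counts.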
